A study of Rattus norvegicus with 9 samples.

Results

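The genes described here carry the symbols of cytosolic ribosomal proteins, and some are paralogs of these. They were taken by symbol, as every gene named Rpl or Rps with a number, together with Rplp0, Rplp1, Rplp2 and Rpsa. Copies that carry only a LOC name were left out. Earlier results of these data were known when the set was chosen. The rule matched 88 gene entries, and 85 of them had values among the 18006 genes with values in these data. Of the 85, 50 carry the Rpl names of the large (60S) subunit and 35 the Rps names of the small (40S) subunit. Rpl10l, Rpl35a and Rps4y2 were listed without values and do not appear below.

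Most of these proteins occur as a single copy in each ribosome, and growing cells devote much of their protein synthesis to making them. Their mRNAs are among the most abundant of any growing cell. In mammals many of them begin with a 5′ terminal oligopyrimidine (TOP) tract, a C followed by a run of C and T at the cap. Through this tract the kinase complex mTORC1 and the RNA-binding protein Larp1 control how strongly the mRNA is translated and how long it is kept. Genomes also hold many processed copies of these genes, which share most of their exon sequence with the parent gene.

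RNA-seq was performed in 3 groups of 3 samples on the basophilic leukemia line RBL-2H3 of the rat, which serves as a mast cell (MC) model. Ctrl cells were labelled untreated. DNP cells carried anti-DNP IgE (50 ng/ml, 12 h of sensitization) and then met DNP-HSA, the antigen that crosslinks this IgE on its receptor, at 100 ng/ml over 4 h. PF cells were sensitized in the same way, received for 1 h an agent that the labels call PF and do not identify, and then met the same dose of DNP-HSA. The PF stimulation time is written as 4, 5 and 6 h for the 3 replicates in one field and as 4 h for every sample in another, and that second field also describes sensitization and stimulation for the Ctrl samples, so that these entries disagree. No label says that the replicates were separate cultures, and the p-values below measure only the spread between these samples.

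Of 9 mast cell and basophil markers, 8 had values, and the receptor chain Fcer1a lay between 410 and 503 FPKM. The lowest of the 8, Mcpt8, lay between 4.78 and 20.4 FPKM. The other cell type markers checked lay at or below 1.64 FPKM, apart from the T cell gene Cd3e, which lay between 6.74 and 9.52 FPKM. Values are FPKM, fragments scaled to transcript length and library size, so that levels of different genes can be set side by side. They are shares of each library, from which a change in RNA per cell cannot be read, and the number of reads behind each is unknown. Differences were computed on the log2(FPKM + 1) scale and tested with limma across every gene that reached 1 FPKM in at least 3 of the 6 samples compared, and a gene was called at a Benjamini-Hochberg adjusted p of at most 0.05. All differences named below are on this scale.

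The start of the mRNA is shown first, because the TOP tract is the feature these genes are known for. RefSeq windows on the GRCr8 assembly, which is not the rn6 build that the submitters' processing notes name, matched 65 of the 85 genes by gene ID. The pattern searched was a C at the annotated start followed by at least 4 further bases that are each C or T, on the sense strand only. Each line below gives the 10 bases before the annotated start and the 20 bases from it, 5′ to 3′, with the uninterrupted tract in capitals. The first 6 genes hold the pattern. The last 3 do not, and are shown because Rpl7l1 was the only gene of the set called lower in PF cells, Rpl22l1 is another paralog of low level, and Rpl13a was among the genes with the smallest PF differences.
Rplp0: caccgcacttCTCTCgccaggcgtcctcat
Rpl10: gtgggagcgtCTCTTTTCCTCTggcgcggt
Rpl19: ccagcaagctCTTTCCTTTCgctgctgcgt
Rps15: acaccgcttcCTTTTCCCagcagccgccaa
Rps18: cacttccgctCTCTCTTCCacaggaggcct
Rps7: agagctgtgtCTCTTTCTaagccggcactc
Rpl7l1: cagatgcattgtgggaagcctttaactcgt
Rpl22l1: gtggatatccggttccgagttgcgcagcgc
Rpl13a: tcctttcctaggcggctgccgaagatggcg

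These stretches lie at chr12:46718371-46718400 (minus strand) for Rplp0, chrX:157205840-157205869 (plus) for Rpl10, chr10:83519054-83519083 (plus) for Rpl19, chr7:10068096-10068125 (minus) for Rps15, chr20:4933735-4933764 (plus) for Rps18 and chr6:50999426-50999455 (minus) for Rps7. Those without the pattern lie at chr9:21695708-21695737 (plus) for Rpl7l1, chr2:113683186-113683215 (plus) for Rpl22l1 and chr1:104748894-104748923 (minus) for Rpl13a. Each spans the end of the promoter and the first bases of the transcript as RefSeq annotates it.

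The pattern stood at the annotated start in 21 of the 65 ribosomal protein genes with a window (32.3%), in 14 of 40 large subunit genes and in 7 of 25 small subunit genes. The tracts ran from 5 to 12 bases, with a median of 7. Over all 27457 genes of the promoter table the share was 3.11%, and it was 3.28% of the mitochondrial ribosomal protein genes, 2 of 61. None of the 65 respiratory chain genes and none of the 14 listed translation factor genes with a window held it. When the tract was allowed to begin anywhere within 10 bases of the annotated start, 46 of the 65 ribosomal protein genes (70.8%) and 9 of the 14 translation factor genes (64.3%) held it, against 31.3% of all genes. Annotated starts are not measured starts, and a missing match says only that these letters are not at that place in the annotation.

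The ribosomal protein genes were among the most abundant transcripts of these cells. They made up 61 of the 100 genes with the highest mean FPKM over the 9 samples, and 16 of the highest 20. Of the 85, 79 had a mean of at least 100 FPKM, and these ran from 460 to 5600 FPKM with a 12.2-fold range. The median was 1617 FPKM for the large subunit and 1526 FPKM for the small subunit, and the median of all genes with values was 2.67 FPKM. The 5 highest were Rps12, a small subunit protein, Rpsa, which is also known as the laminin receptor, Rps2, Rplp0, the base of the ribosomal stalk, and Rps24.

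Summed over the 85 genes, the level was 142267, 146393 and 137648 FPKM in Ctrl samples 1, 2 and 3. It was 133559, 131128 and 136964 FPKM in the DNP samples and 158599, 166701 and 154184 FPKM in the PF samples. All 3 PF samples thus lay above the other 6, and all 3 DNP samples lay below the Ctrl samples. As a share of the summed FPKM of all genes, this was 24.3% ± 0.632 (SD, n = 3) in Ctrl cells, 23.2% ± 0.319 (SD, n = 3) in DNP cells and 25.8% ± 0.602 (SD, n = 3) in PF cells. By share PF samples again lay highest and DNP samples lowest, although Ctrl 3 and DNP 3 both round to 23.5%. With the copies described below added, the sums were 149367, 154113 and 147438 FPKM in Ctrl cells, 141425, 138442 and 144376 FPKM in DNP cells and 167959, 176485 and 163606 FPKM in PF cells, in the same order. Both subunits moved in the same direction, from 74705 FPKM in DNP cells to 89062 FPKM in PF cells for the large subunit and from 59178 to 70766 FPKM for the small subunit.

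**Figure D1:**
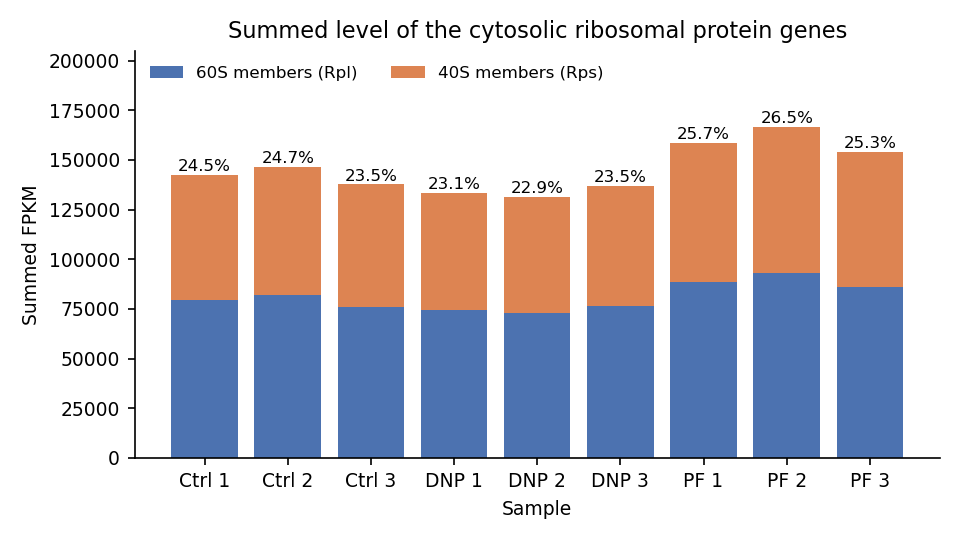
Summed FPKM of the 50 large subunit and 35 small subunit genes in each of the 9 samples, as stacked bars, with the share of all summed FPKM printed above each bar. The 3 PF samples, at 158599, 166701 and 154184 FPKM, stand above the 6 others.

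Ctrl replicate 3 stood apart from the other Ctrl samples in a respect that touches several of these genes, the division of signal between a gene and its processed copies. RefSeq names 78 genes with values in these data as copies of a ribosomal protein gene, and 29 of them had a mean of at least 10 FPKM. Ctrl 3 exceeded both other Ctrl samples in 18 of those 29, with a median of 1.68 times their mean. The same median was 0.69 for Ctrl 1 and 0.89 for Ctrl 2, so that Ctrl 1 was displaced the other way. Among the 79 ribosomal protein genes with a mean of at least 100 FPKM, 5 varied among the Ctrl samples with a coefficient of variation (CV) above 20%, whereas none of the 79 did so among the DNP or the PF samples.

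Rpl9, a large subunit protein, showed this most strongly. Its values were 859, 594 and 146 FPKM in Ctrl samples 1, 2 and 3, and those of its copies together were 525, 790 and 1247 FPKM. The sum of gene and copies was 1384, 1385 and 1392 FPKM, so that the CV fell from 67.6% for the gene to 0.331% for the sum. Rps20 had 1861, 1397 and 813 FPKM in the Ctrl samples, its copies 1152, 1426 and 2210 FPKM, and their sum 3013, 2823 and 3022 FPKM. Rpl38 ran from 927 and 804 FPKM down to 371 FPKM in Ctrl 3, while its copy rose from 376 and 543 to 773 FPKM.

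The direction was not the same for every gene. Rps26 was highest in Ctrl 3, at 906 FPKM against 519 and 545 FPKM, and its copies were lowest there, at 1055 FPKM against 1409 and 1290 FPKM. Rps13, the remaining gene of these 5, had 602, 692 and 449 FPKM. How the signal came to be divided in this way was not tested. For these genes the sum of gene and copies is given beside the gene's own value below, and counts are given with and without Ctrl 3.

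**Figure D2:**
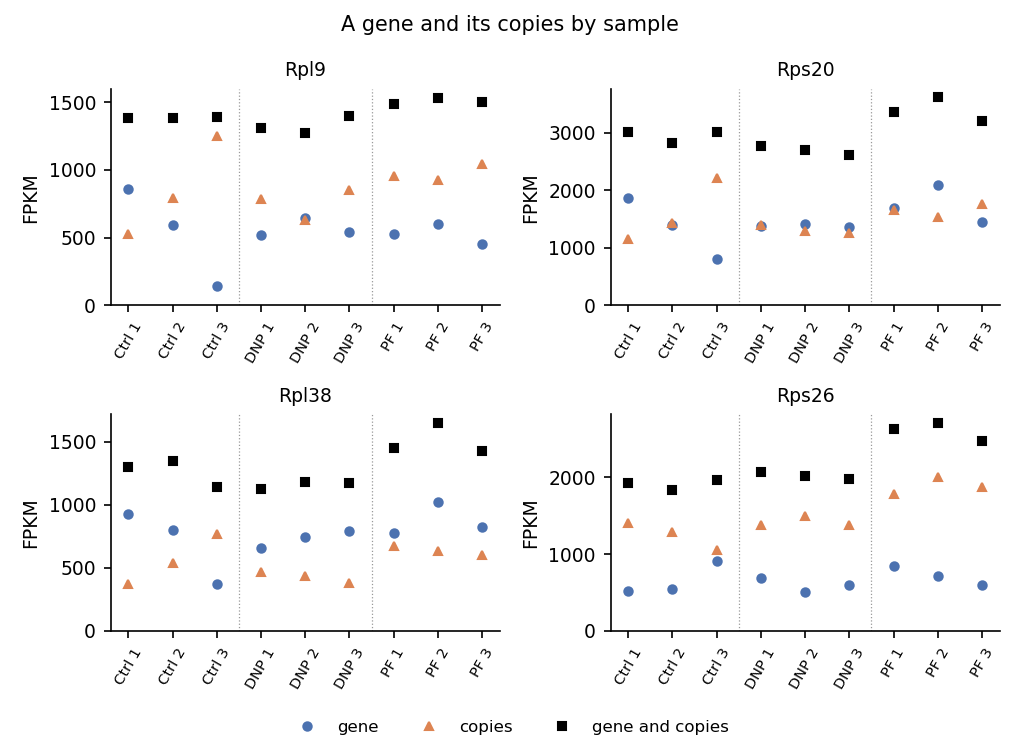
FPKM of Rpl9, Rps20, Rpl38 and Rps26 (circles), of their copies named by RefSeq (triangles) and of both together (squares) in each sample. In Ctrl 3 the Rpl9 value falls to 146 FPKM and its copies rise to 1247 FPKM, while the sum stays at 1392 FPKM.

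A separate ambiguity concerns Rps9 and Rps9l1, which had identical values in all 9 samples, with a mean of 460 FPKM each. The symbol Rps19 was attached to a pair of entries with different gene IDs, 29287 and 108348115. The first had 867, 784 and 1039 FPKM in DNP samples 1, 2 and 3 where the second had 557, 549 and 384 FPKM, so that DNP 3 was highest for the first and lowest for the second. The levels of both entries are uncertain for this reason. Unless copies are summed, Rps9, Rps9l1 and each Rps19 entry are counted as separate genes below.

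IgE/DNP stimulation was compared with Ctrl cells. If the Ctrl cells were untreated, as labelled, sensitization with IgE and the antigen cannot be told apart in this comparison. Of 82 tested with limma, none was higher and 11 were lower in DNP cells (13.4%), where 14.7% of all 10392 genes tested were higher and 14.4% were lower. The share that fell was thus near that of genes in general. At an unadjusted p under 0.05, 1 gene was higher and 27 were lower, against 2091 higher and 2200 lower of all 10392. The median difference was −0.08, against −0.01 for all genes, and 72 of the 82 values were negative. In 31 of the 82 genes (37.8%) every DNP sample lay below every Ctrl sample, against 23.4% of all genes tested. The small subunit had a median of −0.09 and the large subunit of −0.07.

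Rps25, a small subunit protein, fell most in DNP cells. It had 1508, 1505 and 1502 FPKM in Ctrl cells and 1238, 1263 and 1324 FPKM in DNP cells, with no overlap between the groups. The difference was −0.24 ± 0.0363 (SE, limma adjusted p = 0.00225). Rps18 had 2364, 2406 and 2590 FPKM in Ctrl cells and 2149, 1993 and 2170 FPKM in DNP cells, and fell by 0.22 (limma adjusted p = 0.013). Its copy had 196, 204 and 0.0 FPKM in Ctrl samples 1, 2 and 3. With the copy added, the difference was −0.18 (limma adjusted p = 0.00674).

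Rpl18, which had 1058, 1071 and 1026 FPKM in Ctrl cells and 929, 920 and 926 FPKM in DNP cells, fell by 0.18 (limma adjusted p = 0.00411). Rpl23a, which sits at the exit of the peptide tunnel, fell by 0.18 as well (limma adjusted p = 0.00913). Rps6 went from 3651, 3763 and 3675 FPKM to 3401, 3285 and 3380 FPKM and fell by 0.14 (limma adjusted p = 0.0232). Phosphorylation of its protein by S6 kinase is the usual readout of mTORC1 activity, and an mRNA level does not measure it. The other 6 that fell were Rpl27, Rps27, Rpl30, Rpl13a, Rps3, which also acts in DNA repair, and Rps7, with differences from −0.16 to −0.13. These 11 thus came from both subunits, 6 from the small and 5 from the large.

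The 5 highest differences were those of Rpl9, Rpl38, the second Rps19 entry, Rps27a and Rps20, and none of these passed the test. Rpl9 had 0.43 ± 0.542 (SE) and Rpl38 0.17 ± 0.289 (SE), and both turned negative when gene and copies were summed, to −0.07 and −0.12. The second Rps19 entry had 0.14, and both entries together had −0.04 (limma adjusted p = 0.44). Rps20 went from 0.11 to −0.13 in that sum, where it fell (limma adjusted p = 0.0426). Rps26 went from −0.09 to 0.08 with its copies (limma adjusted p = 0.127 for the sum). Rps13 went from 0.10 to −0.08 (limma adjusted p = 0.167 for the sum). Rps27a, a fusion of ubiquitin and a small subunit protein, had 1191, 1181 and 1139 FPKM in Ctrl cells and 1231, 1254 and 1309 FPKM in DNP cells. These groups did not overlap, and the difference of 0.11 missed the threshold (limma adjusted p = 0.0558).

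The count of 11 was sensitive to single samples. It was 5 without DNP replicate 1 or without DNP replicate 2, where 10.7% and 10.2% of all genes were lower. It was 6 without Ctrl replicate 2 (10.6% of all genes) and 13 without Ctrl replicate 3 (12.7% of all genes). When copies and duplicate entries were added to their parent genes, 17 of 79 genes fell, against 14.8% of all genes.

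PF cells were compared with DNP cells, and here nearly the whole set rose. By one label field, PF replicates 2 and 3 were stimulated for 5 and 6 h, against 4 h for the DNP samples. If that field holds, the agent and the longer stimulation cannot be told apart in those replicates. Of 82 genes tested, 75 were higher in PF cells (91.5%), where 18.1% of all 10329 genes tested were higher, and 1 was lower (1.22%), where 30.7% were lower. The median difference was 0.25, which is 18.8% more, against −0.04 for all genes. In 74 of the 82 genes (90.2%) every PF sample lay above every DNP sample, against 22.3% of all genes tested. The rise covered both subunits, with 44 of 47 large subunit genes and 31 of 35 small subunit genes higher and medians of 0.24 and 0.26.

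Abundant genes outside the set also tended to be higher in PF cells, though in a smaller share. Of the 855 other genes with a mean of at least 100 FPKM, 53.6% were higher and 11.1% lower, with a median of 0.11. Among the 134 other genes with a mean of at least 400 FPKM, 73.9% were higher and 4.48% lower, with a median of 0.17. With every sample scaled to the same summed FPKM, 238 of the 855 were higher and 188 lower, and 59 of the 134 were higher and 15 lower. The summed FPKM of all genes was itself 1.07 times as high in PF as in DNP cells, and the ribosomal protein genes made up 63.1% of that difference.

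**Figure D3:**
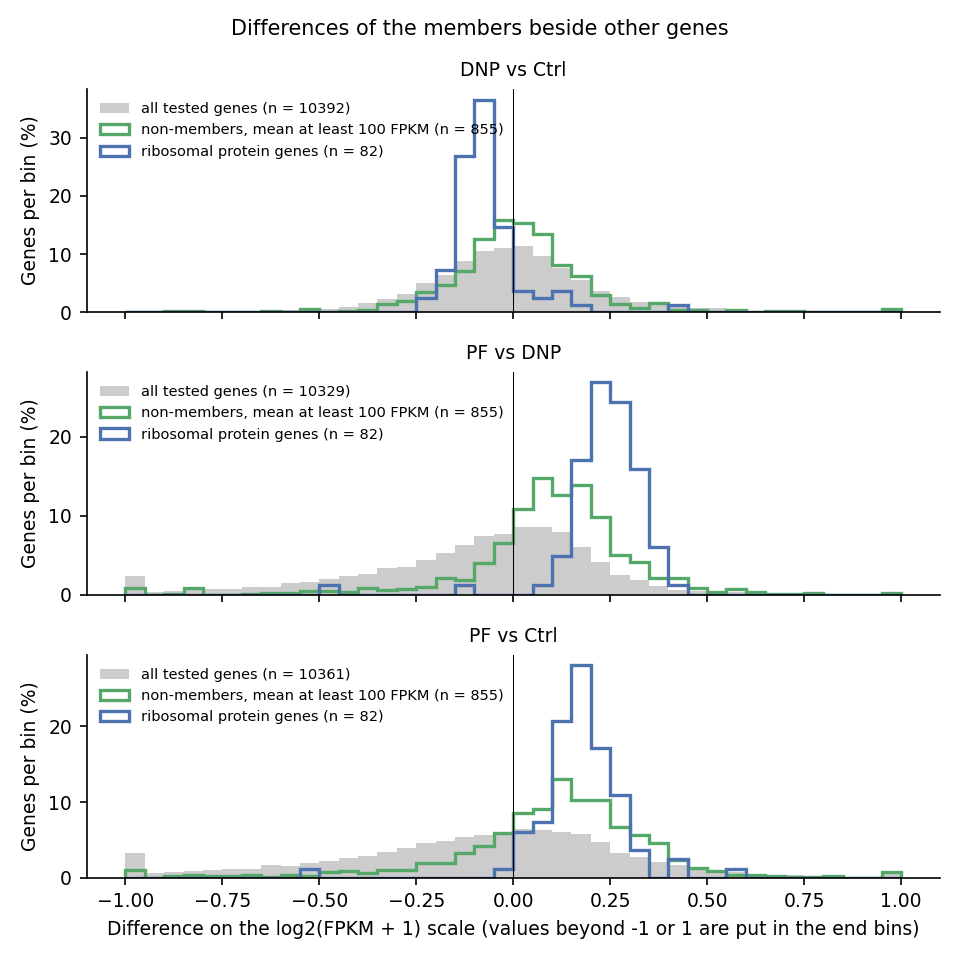
Distribution of the differences on the log2(FPKM + 1) scale in the 3 comparisons, as the percent of genes in each bin, for all tested genes (grey), other genes with a mean of at least 100 FPKM (green) and the 82 ribosomal protein genes (blue). In PF against DNP cells the ribosomal protein genes center on 0.25, the other abundant genes on 0.11 and all genes on −0.04.

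The most abundant members moved by nearly the same amount. Rps12 had 5171, 5044 and 5326 FPKM in DNP cells and 6217, 6502 and 6008 FPKM in PF cells, and rose by 0.27 ± 0.0434 (SE, limma adjusted p = 0.000994). Rplp0, the base of the stalk that recruits elongation factors, had 4065, 4009 and 4014 FPKM in DNP cells and 4967, 5021 and 4601 FPKM in PF cells and rose by 0.27 (limma adjusted p = 0.000872). In each of these genes the lowest PF sample exceeded the highest DNP sample by more than the spread within either group.

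Rpsa, Rps2 and Rps24 rose by 0.23, 0.27 and 0.25. The other stalk proteins, Rplp1 and Rplp2, rose by 0.13 and 0.26, and Rplp1 was the weaker call (limma adjusted p = 0.04). Rpl5 and Rpl11, which with 5S RNA bind Mdm2 when ribosome assembly is disturbed, rose by 0.19 and 0.21. Rps14 and Rps19 are both known from inherited or acquired anemias. Rps14 rose by 0.28, and the first Rps19 entry had a difference of 0.15 that did not pass the test (limma adjusted p = 0.239), while both Rps19 entries added together rose by 0.25 (limma adjusted p = 0.000947).

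The largest differences were 0.43 for the second Rps19 entry and 0.40 for Rpl36, followed by Rps28 with 0.38 and Rpl29 and Rpl39 with 0.37 each. For the second Rps19 entry the groups overlapped (limma adjusted p = 0.0407). Rpl36 had 1188, 1204 and 1216 FPKM in DNP cells and 1560, 1738 and 1474 FPKM in PF cells (SE 0.0556, limma adjusted p = 0.00043). Rps28, a very short protein, had 598, 569 and 547 FPKM in DNP cells and 711, 815 and 711 FPKM in PF cells. Rpl41, the smallest, rose by 0.29.

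Among the genes called, only Rpl7l1, a paralog of Rpl7, went the other way. It had 69.4, 71.7 and 71.0 FPKM in DNP cells and 49.8, 51.5 and 52.4 FPKM in PF cells. Its difference was −0.46 ± 0.0347 (SE, limma adjusted p = 1.23e-05), while Rpl7 itself, at 1099, 1080 and 1105 FPKM in DNP cells and 1211, 1266 and 1246 FPKM in PF cells, rose by 0.18 (limma adjusted p = 0.00159). The paralog and its partner thus moved in opposite directions, the paralog at a mean of 65.3 FPKM and the partner at 1156 FPKM. The symbol alone placed Rpl7l1 in the set, and these data do not show whether its protein is part of the ribosome.

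The other paralogs expressed at a measurable level did not share this fall. Rpl22l1 had 65.2, 63.7 and 70.0 FPKM in DNP cells and 71.8, 77.0 and 79.4 FPKM in PF cells and rose by 0.20, while Rpl22 rose by 0.33. Rps27l, a paralog known as a target of p53, had 80.3, 85.5 and 85.0 FPKM in DNP cells and 83.4, 101.1 and 96.4 FPKM in PF cells, and its difference of 0.16 missed the threshold (limma adjusted p = 0.0747), while Rps27 rose by 0.32. Rpl3l, Rpl39l and Rpl30l1 had means below 1 FPKM, at most 0.406 FPKM, and were not tested. Their partners Rpl3 and Rpl39 rose by 0.28 and 0.37. Rpl10 and Rpl26 rose by 0.34 and 0.24, and Rps4x by 0.18.

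Besides Rps27l, the genes that did not pass were the first Rps19 entry and Rpl9, Rps13, Rps26 and Rpl38, the last 4 being genes whose signal was divided between gene and copies. Rpl9 had 519, 646 and 542 FPKM in DNP cells and 527, 603 and 452 FPKM in PF cells, so that the groups overlapped, with a difference of −0.11. Gene and copies together had 1305, 1272 and 1395 FPKM in DNP cells and 1483, 1527 and 1498 FPKM in PF cells, and that sum rose by 0.18 (limma adjusted p = 0.00411). The sums for Rpl38, Rps26 and Rps13 rose as well, by 0.37, 0.37 and 0.18. With copies added to their parents, 77 of 79 genes rose. Rpl4, Rpl13a and Rplp1, with 0.13 each, had the lowest differences among those that did rise.

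The PF replicates were not equal. PF 2 was the highest of the 9 samples in 71 of the 82 genes, and DNP 2 was the lowest in 44. Leaving out PF replicate 2 gave 71 higher, against 15.7% of all genes, and leaving out DNP replicate 2 gave 70 higher, against 14.9%. The size of the rise changed with the scaling. When every sample was scaled to the same summed FPKM, 61 genes were higher with a median of 0.15, and 8.42% of all genes were higher and 41.7% lower. When samples were scaled by median ratios, 77 were higher with a median of 0.31, and 26.7% of all genes were higher and 25.2% lower.

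**Figure D4:**
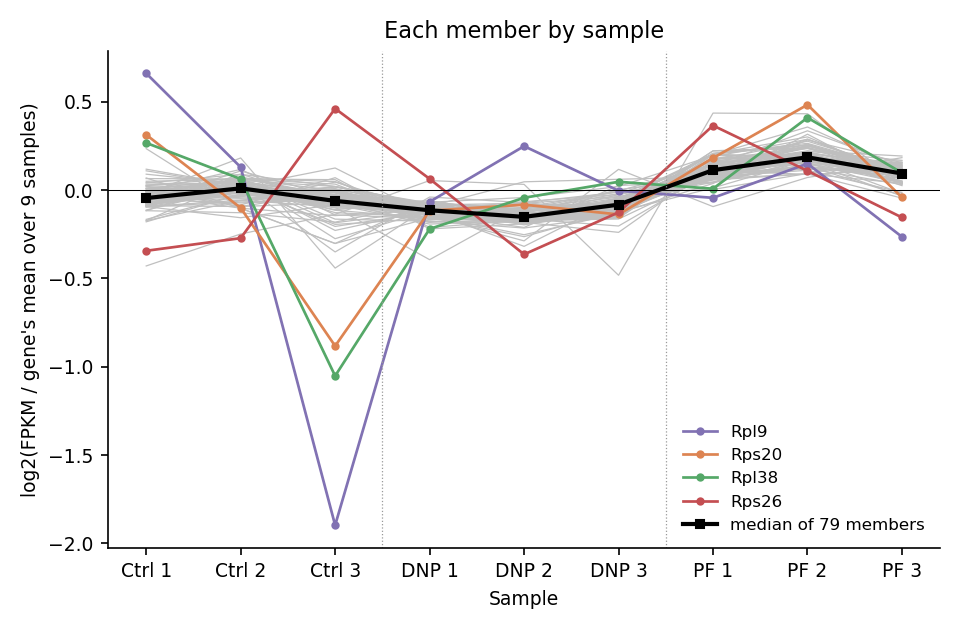
log2 of the FPKM over the gene's own mean across the 9 samples, for the 79 ribosomal protein genes with a mean of at least 100 FPKM (grey lines), their median (black) and 4 genes whose signal is divided with copies (colors). The median lies lowest in the DNP samples and highest in the PF samples, and Rpl9, Rps20 and Rpl38 drop in Ctrl 3 while Rps26 rises there.

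PF cells were also compared with Ctrl cells. This comparison shares the PF samples with the one above and the Ctrl samples with the first, so that its values are not independent of either. Of 82 genes, 50 were higher (61%), where 23.1% of all 10361 genes tested were higher, and Rpl7l1 alone was lower (1.22%), where 34.6% were lower. The median difference was 0.17, against −0.05 for all genes, 0.13 for other genes with a mean of at least 100 FPKM and 0.16 for those with a mean of at least 400 FPKM. In 63 genes every PF sample lay above every Ctrl sample (76.8%), against 26.6% of all genes tested. Of other genes with a mean of at least 100 FPKM, 51.2% were higher, and 55.9% had every PF sample above every Ctrl sample. For those with at least 400 FPKM these shares were 64.2% and 70.1%. The median and the share called higher were therefore close to those of the most highly expressed other genes.

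The second Rps19 entry had 398, 452 and 488 FPKM in Ctrl cells and 726, 724 and 549 FPKM in PF cells and rose by 0.57 (limma adjusted p = 0.00264), while the first entry did not pass (limma adjusted p = 0.956). Both entries together rose by 0.21 (limma adjusted p = 0.00148). Rpl36 had 1210, 1336 and 1284 FPKM in Ctrl cells and 1560, 1738 and 1474 FPKM in PF cells and rose by 0.32 (limma adjusted p = 0.00336). Rps20, Rpl38 and Rpl9 had differences of 0.43, 0.41 and 0.31 that did not pass the test. The sums of these genes with their copies rose, by 0.20, 0.26 and 0.12. Rps26 had 0.16 (limma adjusted p = 0.538), but its sum with copies rose by 0.45 (limma adjusted p = 5.21e-05). Rps13 had 0.15 and its sum with copies 0.10, and neither passed (limma adjusted p = 0.354 and 0.125).

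Rpl7l1 had 71.97, 75.5 and 74.6 FPKM in Ctrl cells, all above the PF samples, and fell by 0.52 ± 0.0392 (SE, limma adjusted p = 1.37e-05). At the lower end of the range, Rpl13a, Rpl23a and Rpl30 had differences of −0.01, 0.02 and 0.02 and overlapping groups. Rps6, with 3793, 3947 and 3702 FPKM in PF cells, had a difference of 0.04 (limma adjusted p = 0.399). The count of 50 was 28 with samples scaled to the same sum, 66 with median ratios, where 15.2% and 30.3% of all genes were higher and 41.7% and 29.1% lower, 41 without Ctrl replicate 3 (21.9% of all genes higher) and 32 without PF replicate 2 (19.8%). Without Ctrl replicate 3, Rpl9 also counted as lower, with a difference of −0.45 (limma adjusted p = 0.042), whereas its sum with copies rose.

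Some ribosomal proteins that the symbol rule leaves out were looked at separately. In PF against DNP cells Fau, a fusion of a ubiquitin-like protein and a small subunit protein, rose by 0.21, and Rack1, a scaffold on the small subunit, by 0.17 (limma adjusted p = 0.00294). With equal sums neither passed, at 0.11 for Fau (limma adjusted p = 0.0697) and 0.0760 for Rack1 (limma adjusted p = 0.0562). Rpl36al, a paralog of Rpl36a, had a difference of 0.04 and did not pass. None of these 3 was called by limma in DNP against Ctrl cells, and 0 had an unadjusted p under 0.05.

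Other lists are given for PF against DNP cells, where 18.1% of all genes were higher and 30.7% lower, or 8.42% and 41.7% with equal sums. These lists and those below were also chosen with earlier results of these data known. Of the 18 listed translation factors and other TOP mRNAs, 12 were higher in PF than in DNP cells and none was lower by limma (13 and 0 at an unadjusted p under 0.05), with a median of 0.14. With equal sums, 4 were higher and 2 lower. Btf3, a subunit of the nascent chain complex, rose by 0.26, Eef1b2, an exchange factor of elongation factor 1, by 0.22 and Eef2, the translocation factor, by 0.21. The respiratory chain genes, which are nuclear genes outside the ribosome, had values near those of the ribosomal protein genes, with 61 of 71 higher, none lower by limma (63 and 0 at an unadjusted p under 0.05) and a median of 0.24. With equal sums, 47 were higher and 1 lower. Cox7a2 rose by 0.55 and Uqcr10 by 0.53. Mitochondrial ribosomal protein genes had 26 of 74 higher and 8 lower, with a median of 0.10, and ranged from Mrpl42, which rose by 0.44, to Mrpl50, which fell by 0.92. With equal sums, 14 were higher and 11 lower.

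Genes that build ribosomes were also counted. Of 60 ribosome assembly factors, 24 were higher (40%) and 1 was lower (1.67%) in DNP than in Ctrl cells, against 14.7% and 14.4% of all genes, with a median of 0.11. Nop56, a core protein of the box C/D particles that guide rRNA methylation, had 84.2, 87.5 and 84.7 FPKM in Ctrl cells and 108, 113 and 113 FPKM in DNP cells and rose by 0.37 (limma adjusted p = 0.000244). Dimt1, an rRNA methylase, rose by 0.64 and Noc2l by 0.42, while Imp3 fell by 0.36. In PF against DNP cells 15 of the 60 were higher (25%) and 4 lower (6.67%), against 18.1% and 30.7% of all genes, with a median of 0.04, but 7 were higher and 12 lower with equal sums, where the median was −0.05. Of the RNA polymerase I genes and factors, 5 of 13 were higher and 1 lower in DNP against Ctrl cells, and 2 of 14 were higher and 3 lower in PF against DNP cells, or 1 and 4 with equal sums, against the same shares of all genes.

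Among genes that control the translation of TOP mRNAs, 3 of 17 were higher (17.6%) and 1 lower (5.88%) in DNP cells, where the shares of all genes were 14.7% and 14.4%, so that the higher share was near that of genes in general. Larp1, which binds the TOP tract, rose by 0.15 (limma adjusted p = 0.0162), and Rptor, the mTORC1 subunit that binds substrates, rose by 0.50 at a mean of 3.07 FPKM. The helicase Eif4a1 rose by 0.11, and Eif4ebp1, which binds and inhibits the cap-binding protein, fell by 0.18. In PF against DNP cells 3 were higher and 3 lower (17.6% each), against 18.1% and 30.7% of all genes, or 0 and 5 with equal sums, where 8.42% and 41.7% of all genes were higher and lower. Those higher were Rheb, the GTPase that activates mTORC1, by 0.16, Tsc2, which inhibits Rheb, by 0.15, and the scaffold Eif4g1, by 0.11. Pdcd4, an inhibitor of the helicase Eif4a1, had 16.8, 17.1 and 16.4 FPKM in DNP cells and 8.0, 9.12 and 8.45 FPKM in PF cells and fell by 0.90 (limma adjusted p = 4.6e-06). Tsc1, the partner of Tsc2, fell by 0.43, and Larp4b, an RNA-binding protein, by 0.31.

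**Figure D5:**
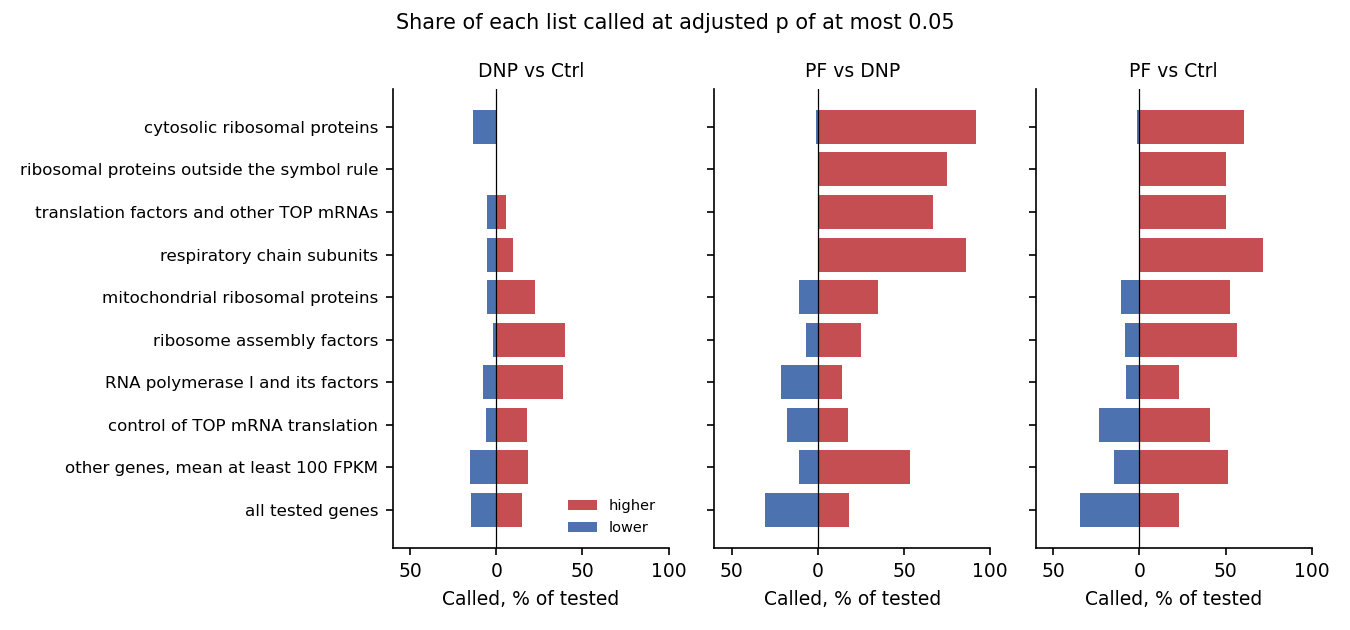
Percent of the tested genes of each list called higher (right, red) or lower (left, blue) in the 3 comparisons (limma, Benjamini-Hochberg). In PF against DNP cells the cytosolic ribosomal protein genes (91.5% higher) and the respiratory chain genes (85.9% higher) lie above all genes (18.1% higher), and in DNP against Ctrl cells the ribosome assembly factors do (40% higher).

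The ribosomal protein genes were last divided by the TOP pattern at their annotated start, as a description with no test. Of the 21 with the pattern, 19 were higher in PF than in DNP cells, with a median difference of 0.28. Of the 41 tested genes with a window but without the pattern, 36 were higher and 1, Rpl7l1, was lower, with a median of 0.23. Within 10 bases of the annotated start, 46 of the 65 genes held the pattern, Rpl7l1 and Rpl13a among them. The division thus depends on the annotated start and does not separate genes with and without a nearby tract. Among the 6 printed above with the tract, Rpl10 rose by 0.34, Rps15 by 0.33, Rps18 by 0.28, Rplp0 by 0.27, Rps7 by 0.24 and Rpl19 by 0.18. The printed genes do not stand for their groups. Of genes with the pattern, Rplp1 rose by only 0.13 and Rpl9 had −0.11, which did not pass the test. Rpl36, which lacks the pattern, rose by 0.40.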

How the data were processed

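RNA was extracted with Trizol and sequenced, on a BGISEQ-500 by the study's methods and with Illumina library protocols per the labels. Per the submitters' processing notes and the study's methods, reads were mapped with HISAT2 2.0.4 and quantified with Bowtie2 2.2.5 and RSEM 1.2.12 on rn6. The deposited value column, read here as FPKM as the authors' RSEM output gives it, carries no read counts, so that depth is unknown. In each of 9 samples the 85 genes were taken from the table of all genes. Values were used as deposited, log2(FPKM + 1) transformed, filtered at 1 FPKM in 3 samples and fitted per comparison with limma 3.58.1 (trend, R 4.3.3) on the samples of both groups, after a check on simulated data. The authors' own test was DESeq2, which needs counts. The members and lists were chosen with earlier results of these data known. Genes named are the 5 highest means, the 5 highest and 5 lowest differences per comparison, fixed members (stalk, ubiquitin fusions, paralogs with partners, genes with known roles), proteins outside the rule and the largest calls of other lists. Rpl36al, Rps7, Rpl27, Rps15, Rpl19, Rps26, Rps9, Rps9l1, Rpl30l1, Larp1, Rptor, Eif4a1, Eif4ebp1, Rheb, Tsc2, Eif4g1, Larp4b, Nop56, Tsc1, Eef1b2 and Eef2 were named after their values were seen. Copies were matched to parents by RefSeq gene ID, and the sum of copies was added after seeing the data. A result on an item withheld for evaluation is not reported here.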

Additional observations from a re-analysis of the deposited data

How the results depend on the processing

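PF against DNP cells gave 61 to 77 higher genes and 1 lower gene under every alternative run, and the median was 0.31 (median ratios), 0.15 (equal sums) and 0.20 (equal sums of the other genes), and 0.22 to 0.27 when 1 replicate was left out. PF against Ctrl cells gave 28 higher genes with no filter, 28 with equal sums and 26 at a threshold of 0.01, and 32 to 50 when 1 replicate was left out, with 1 to 2 lower. Its median was 0.23, 0.0848 and 0.11 under the same 3 scalings. DNP against Ctrl cells gave 2 lower genes with no filter, 6 without the trend, 3 at a threshold of 0.01, 17 with copies summed and 5 to 13 when 1 replicate was left out. It gave 1 higher gene with equal sums and with copies summed, and 0 to 1 when 1 replicate was left out. With the replicate block, DNP against Ctrl cells gave 7 lower genes, PF against DNP cells 77 higher and PF against Ctrl cells 58 higher. Correlations of same-numbered deviations ran from −0.0822 to 0.189, and only 1 of 9 exceeded 0.1. In PF against Ctrl cells they were 0.0908, 0.189 and 0.083. Correlations between samples with different numbers were not computed, so that these values cannot decide whether the numbers pair the samples.

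Of 1493 values of reported genes under alternatives, 1313 kept direction and side of the threshold, 128 lost and 21 gained a call, and 31 changed sign. The values of Rps26 and Rps13 against Ctrl cells were not among the 1493. None of those 31 was called in the reported fit, and 3 were called under the alternative (Rps20 in DNP against Ctrl cells and Rpl9 in PF against DNP cells with copies summed, Rpl9 in PF against Ctrl cells without Ctrl replicate 3). With copies summed, Rpl9, Rpl38 and Rps20 had −0.0682, −0.12 and −0.13 in DNP against Ctrl cells, and Rpl9 had 0.18 in PF against DNP cells. With equal sums, Rps13 and Rpl36al had −0.0465 and −0.0626 in PF against DNP cells, and Rps19, Rpl23a, Rpl30 and Rps6 had −0.0753, −0.0566, −0.0558 and −0.0355 in PF against Ctrl cells. With equal sums of the other genes, these became −0.0121 for Rpl36al in PF against DNP cells and −0.0456, −0.0269, −0.0261 and −0.0058 for those 4 in PF against Ctrl cells. Median ratios gave Rpl13a 0.0550 in PF against Ctrl cells. When 1 replicate was left out, DNP against Ctrl cells ranged from −0.3352 to 0.9401 for Rpl9, −0.2369 to 0.4217 for Rpl38 and −0.2185 to 0.3789 for Rps20, each negative without Ctrl replicate 3. PF against DNP cells ranged from −0.0381 to 0.1036 for Rpl36al. PF against Ctrl cells ranged from −0.4476 to 0.8277 for Rpl9, −0.0504 to 0.0736 for Rps19, −0.0400 to 0.0286 for Rpl13a, −0.0194 to 0.0760 for Rpl23a and −0.0123 to 0.0710 for Rpl30. The cause of these changes was not tested.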
